A study of Homo sapiens with 16 samples.

Results

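The forkhead genes of T24 bladder cancer cells were followed through stepwise acquisition of gemcitabine resistance. Gene symbols made of FOX, a letter from A to S and a number were taken from the deposited expression table, without FOXA1, FOXM1 and antisense genes, which left 45 of 39007 genes. T24 is an established human bladder cancer cell line, and gemcitabine is a deoxycytidine analogue that stops DNA synthesis. The GRC1 line was derived from T24 by repeated exposure to gemcitabine with regrowth of the survivors. RNA was sequenced from T24 cells (parental phase P0) and from the early (P3), intermediate (P7) and late (P15) phases of this 1 line, with 4 libraries in each. All 16 sample titles carry the tag NT, which the labels do not explain, and they do not say whether gemcitabine was present at harvest. The resistant phases therefore share 1 lineage, and the number of exposures cannot be told apart from time in culture. The labels do not say that libraries of a phase came from separate cultures, so the p-values may measure technical spread only.

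Values are log2 of CPM plus 1, where CPM is the count of a gene scaled to the total of its library. Estimated totals were 33.8 to 50.1 M counts per library, so 3 counts corresponded to 0.0599 to 0.0888 CPM. Genes at 2 of these counts (2351 to 2702 per library) outnumbered those at 1 count (780 to 908), so a count may not be a sequenced fragment and the number of fragments behind a value may be smaller. Of 13 urothelial markers, KRT7, KRT8, KRT18, GATA3 and PPARG had a mean above 1 CPM in each phase, while UPK1B, UPK2, UPK3A, KRT5, KRT20 and TP63 stayed below it in all phases. Their summed level was 2173 to 2246 CPM in the P0 libraries and 694 to 771 CPM in the P15 libraries. KRT19 went from a mean of 85.1 CPM at P0 to 0.0124 CPM at P15, and UPK1A went from 0.0749 to 1.98 CPM. The summed level of 6 fibroblast markers was 7.08 to 8.34 CPM at P0 and 25.8 to 28.9 CPM at P15, with COL1A1 and PDGFRB above 1 CPM at both phases. Of 5 endothelial markers only CDH5, and of 6 leukocyte markers only CD14, had a mean above 1 CPM in any phase. The urothelial, fibroblast and leukocyte levels moved along with each P15 result below. CDH5 was lower at P15 than at P0 but did not pass at P15 against P3 or P7. At P3 against P0, CDH5 fell by 2.45, PDGFRB by 1.57, CD14 by 1.40 and COL1A1 by 1.13 on the log2 scale (adjusted p = 1.71e-11 or lower for each, limma), beside the P3 results. CDH5 averaged 5.69 CPM at P0 and at most 0.219 CPM in later phases. It entered the test through P0 alone, so a fall from P0 was built into its selection. At P7 against P0, CDH5 fell by 2.735, KRT19 by 2.69 and PDGFRB by 1.235 (adjusted p = 1.63e-09 or lower for each, limma). CD14 and COL1A1 did not pass in that comparison. The part of these markers in the forkhead results was not tested. The sample-sheet numbers in the labels repeat between libraries and no run is named. The run of each library is thus unknown, and an effect of run cannot be told apart from phase.

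Forkhead proteins bind DNA through a winged helix domain and recognise a short core motif related to TGTTTAC. FOXA factors open compacted chromatin in endoderm-derived tissues. FOXC, FOXD, FOXF and FOXL1 act mainly in mesoderm, mesenchyme and neural crest, and several of them are expressed in carcinomas that have lost epithelial traits. FOXQ1, a factor of hair and gastric epithelium, was listed with them. FOXO factors are held in the cytoplasm after phosphorylation by AKT and, when nuclear, drive genes of cell cycle arrest, apoptosis, autophagy and stress defence. FOXP, FOXK, FOXJ and FOXN members are more widely expressed, and others belong to restricted tissues such as the ovary or the thyroid.

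Of the 45 forkhead genes, 22 averaged more than 1 CPM across all libraries and were tested together with all 13249 genes above that level. A gene passed the test at an adjusted p-value below 0.05 (limma, Benjamini-Hochberg), and it was counted as differentially expressed when its log2 value also differed by at least 1. At P15 against P0, FOXD1 rose most among the 22 tested forkhead genes, and FOXQ1, FOXF2 and FOXL2 fell most. This held by the log2 difference and by the ratio of CPM means alike. FOXO1 had fallen by P3. In all, 8 genes (FOXD1, FOXC2, FOXF1, FOXF2, FOXQ1, FOXL2, FOXO1 and FOXO4) were differentially expressed in at least 1 of the 6 comparisons of phases, as were 34.6% of all tested genes.

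**Figure D1:**
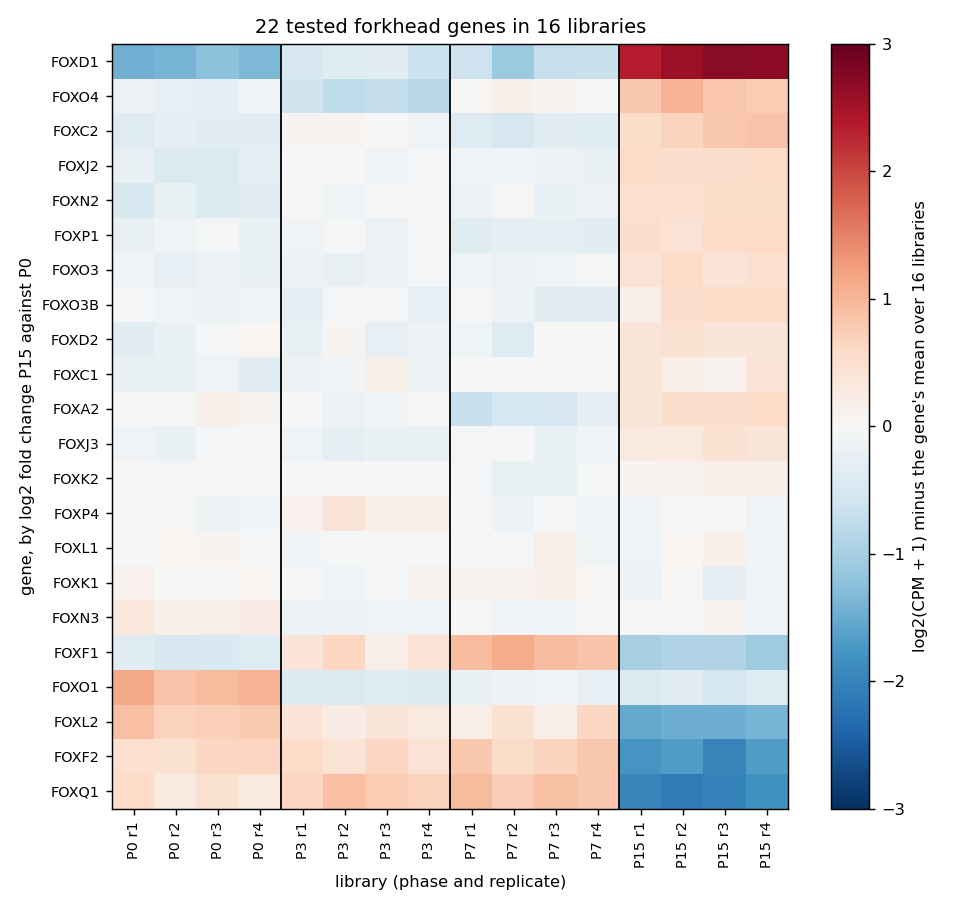
Log2(CPM + 1) of the 22 tested forkhead genes (rows, ordered by log2 fold change P15 against P0) in the 16 libraries (columns, by phase and replicate), each minus the mean of the gene over the 16 libraries. The 4 P15 libraries stand apart from the other 12 in FOXD1 at the top and in FOXL2, FOXF2 and FOXQ1 at the bottom, and the 4 P0 libraries stand apart in FOXO1.

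At P3 against P0, 7 of the 22 genes passed as higher and 4 as lower, where 31.4% and 37.3% of all tested genes did. FOXO1 was the 1 forkhead gene differentially expressed, on the lower side, against backgrounds of 1.95% higher and 2.51% lower. At P7 against P0, 6 passed as higher (background 27.9%) and 6 as lower (34.2%), with FOXF1 differentially expressed as higher (1.86%) and FOXO1 as lower (1.52%). Between P7 and P3, 4 passed as higher (30.3%) and 6 as lower (28%), and 0 were differentially expressed in either direction (0.989% and 0.845% of all tested genes), although 10 had an adjusted and 13 an unadjusted p below 0.05 by limma.

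At P15 against P0, 13 of the 22 genes passed as higher and 7 as lower, against 45.3% and 40.9% of all tested genes. FOXC2, FOXD1 and FOXO4 were differentially expressed as higher and FOXF2, FOXL2, FOXO1 and FOXQ1 as lower, where the backgrounds were 12.1% and 11.4%. Against P7, 13 passed as higher (46.3%) and 6 as lower (40.1%), with 2 differentially expressed as higher (13.4%) and 4 as lower (12.1%). Against P3, 14 passed as higher (46.1%) and 5 as lower (41.1%), with 2 differentially expressed as higher (14.9%) and 4 as lower (12.1%). Late phase P15 held the highest mean of 13 forkhead genes and the lowest of 5, where 43.5% of all tested genes were highest and 38.5% lowest at that phase. The median log2 fold change P15 against P0 was 0.44 over the 22 genes and 0.04 over all tested genes, and the median absolute log2 fold change was 0.62 and 0.51. The comparisons with P0 use the same 4 parental libraries, so their values are given side by side only.

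**Figure D2:**
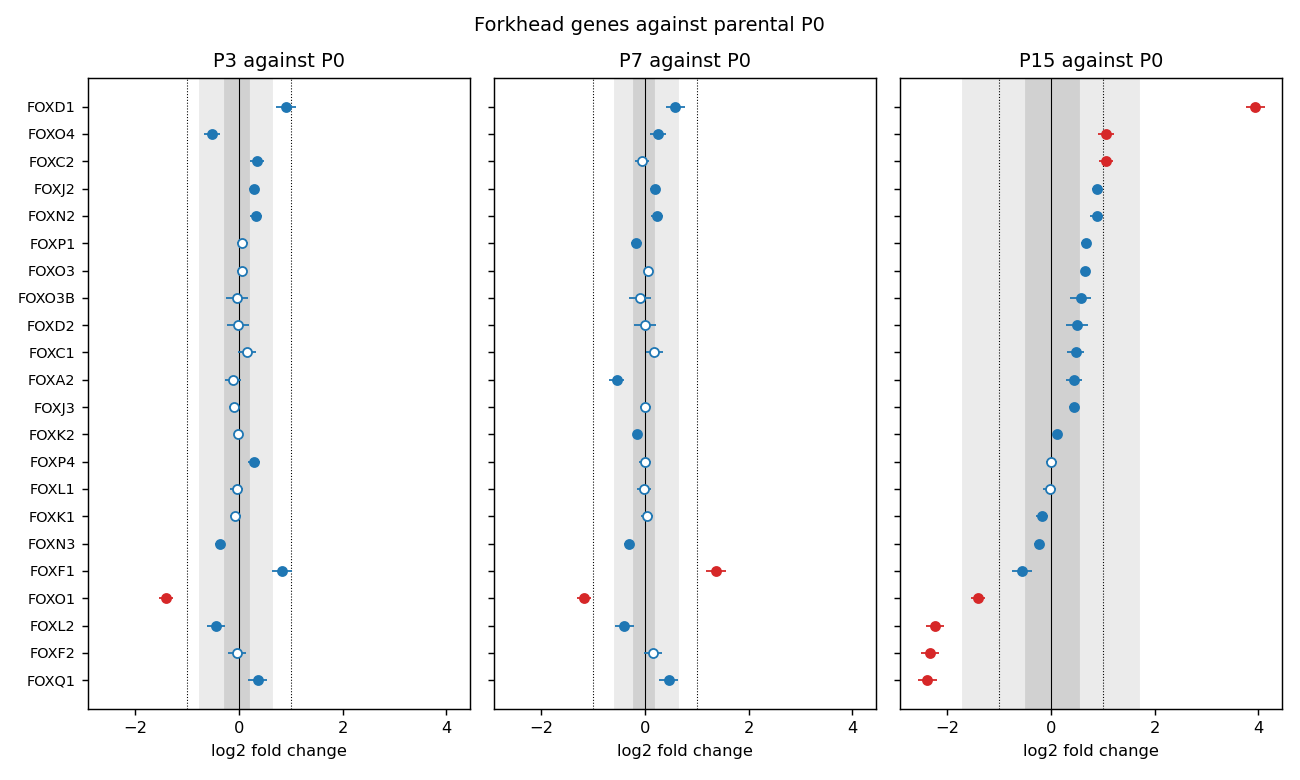
Log2 fold change against P0 (x axis) of the 22 tested forkhead genes (y axis) at P3, P7 and P15, with bars for the 95% interval. Red points were differentially expressed, filled blue points passed the test only and open points did not pass, the dark and light grey bands hold the middle 50% and 90% of all tested genes and dotted lines mark a log2 fold change of 1 in either direction. FOXD1 lies at 3.94 at P15, outside the light band, and FOXO1 lies between -1.41 and -1.18 in all 3 panels.

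FOXD1, a factor of kidney stroma and retina development, showed the largest rise of the tested forkhead genes at P15. Its log2 values were 3.58, 3.63, 3.80 and 3.69 at P0, 4.55, 4.67, 4.72 and 4.38 at P3, 4.41, 3.93, 4.34 and 4.36 at P7, and 7.38, 7.63, 7.73 and 7.72 at P15. Every P15 library lay above all others, and the P3 and P7 libraries lay above the P0 libraries. The log2 fold change was 0.90 ± 0.09 (SE) at P3 against P0 (adjusted p = 5.38e-09), 0.58 at P7 against P0 (adjusted p = 5.98e-06) and 3.94 ± 0.09 at P15 against P0 (adjusted p = 3.87e-22, limma). Between P3 and P7 it fell by 0.32 (adjusted p = 0.00436), and by 0.21 without replicate 2 of P7, the lowest library of that phase (adjusted p = 0.0281, limma). In linear terms the mean went from 11.8 CPM at P0 to 196 CPM at P15, a ratio of 16.6. Per kilobase of exon, FOXD1 at P0 stood at 4.12 CPM per kb, between FOXC2 (4.23) and FOXL2 (4.10), whereas at P15 its 68.5 CPM per kb was above FOXJ3, the next forkhead gene at 16.3. FOXD1 and FOXC2 are among the genes that the study itself selected on these libraries, so their direction here is not independent evidence. Separately, the study reported both genes as higher at P15 than at P0 by quantitative RT-PCR, in the cells and in mouse xenograft tumours.

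The FOXD1 gene (ENSG00000251493) has 1 exon on the minus strand of chromosome 5, at 73444827 to 73448777 of GRCh38. The antisense gene FOXD1-AS1 covers 14.8% of its exon bases, and because no strand setting is given, reads of both cannot be told apart there. The promoter is printed because it belongs to the tested forkhead gene that rose most, and it is credited to RefSeq on GRCh38.p14. The window of 300 bases at chr5:73448728-73449027, minus strand, is written 5′ to 3′ with the GC box (GGGCGG or CCGCCC) in capitals.
FOXD1: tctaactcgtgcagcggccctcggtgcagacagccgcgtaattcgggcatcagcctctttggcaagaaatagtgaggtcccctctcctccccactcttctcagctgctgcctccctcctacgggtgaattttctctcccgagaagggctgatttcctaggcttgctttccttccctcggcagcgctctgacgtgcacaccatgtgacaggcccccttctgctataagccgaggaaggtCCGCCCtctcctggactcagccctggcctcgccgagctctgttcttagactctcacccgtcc
It holds 16 CpG dinucleotides and 1 GC box at a GC content of 59.7%, with no match to the forkhead core (TGTTTAC or GTAAACA) or to TATAAA on either strand.

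FOXC2, which acts in lymphatic and mesenchymal development, rose late and less. Log2 values of FOXC2 were 3.67, 3.77, 3.72 and 3.76 at P0, 4.14, 4.15, 4.08 and 3.95 at P3, 3.67, 3.57, 3.73 and 3.70 at P7, and 4.62, 4.74, 4.87 and 4.92 at P15. The P15 libraries lay above all others, the P3 libraries lay above P0 and P7, and P0 and P7 overlapped. The log2 fold change was 0.35 at P3 against P0 (adjusted p = 5.54e-05), -0.06 at P7 against P0 (adjusted p = 0.422) and 1.06 ± 0.07 (SE) at P15 against P0 (adjusted p = 1.87e-13, limma). In linear terms the mean rose from 12.3 to 26.7 CPM, a ratio of 2.18. FOXC2 (ENSG00000176692) has 1 exon at 86566829 to 86569728 of chromosome 16, plus strand, and FOXC2-AS1 covers 7.97% of its exon bases on the other strand.

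**Figure D3:**
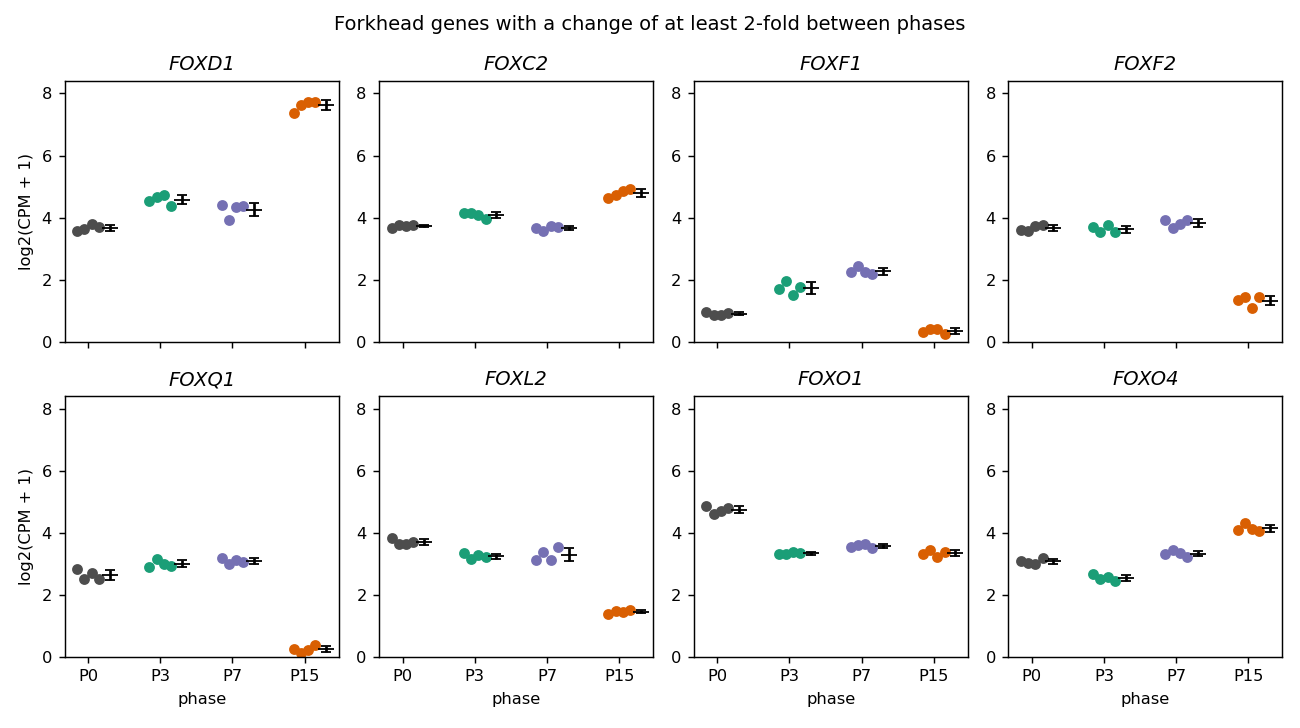
Log2(CPM + 1) (y axis) by phase (x axis) of the 8 forkhead genes that were differentially expressed in at least 1 comparison, with points for single libraries and black bars for mean ± SD (n = 4 libraries). FOXD1 reaches 7.38 to 7.73 at P15, FOXF1 peaks at P7, FOXF2, FOXQ1 and FOXL2 are lowest at P15, and FOXO1 is highest at P0.

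FOXF1, a hedgehog-responsive factor of splanchnic mesenchyme, was the 1 forkhead gene that was differentially expressed upwards at P7 and downwards afterwards. The libraries of FOXF1 had log2 values of 0.96, 0.87, 0.86 and 0.94 at P0, 1.71, 1.96, 1.51 and 1.76 at P3, 2.25, 2.43, 2.24 and 2.17 at P7, and 0.32, 0.41, 0.42 and 0.24 at P15. No libraries of different phases overlapped. It rose by a log2 fold change of 0.83 at P3 against P0 (adjusted p = 6.18e-08) and of 1.37 ± 0.10 (SE) at P7 against P0 (adjusted p = 1.31e-11), and P15 against P7 gave -1.93 (adjusted p = 2.19e-15, limma). Mean levels were 0.877, 2.35, 3.84 and 0.274 CPM from P0 to P15, so that P7 was 4.38 times P0 and 14.02 times P15. With a pseudocount of 0.1, FOXF1 was also differentially expressed at P3 against P0 (log2 fold change 1.31, adjusted p = 6.05e-07) and at P15 against P0 (-1.41, adjusted p = 8.82e-08, limma). At such levels the log2(CPM + 1) scale understates the change. FOXF1 was tested because its mean over all libraries was 1.84 CPM. It exceeded the limit of 1 CPM through P3 and P7, with the P0 and P15 means below it.

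FOXQ1, a factor of hair and gastric epithelium that is raised in several carcinomas, showed the largest fall of the tested forkhead genes at P15. FOXQ1 had log2 values of 2.84, 2.50, 2.70 and 2.50 at P0, 2.89, 3.15, 3.00 and 2.93 at P3, 3.19, 2.98, 3.12 and 3.06 at P7, and 0.26, 0.13, 0.22 and 0.39 at P15. The P15 libraries lay far below the rest, while P3 and P7 lay above P0 and overlapped each other. The log2 fold change was 0.36 at P3 against P0 (adjusted p = 0.00135), 0.45 at P7 against P0 (adjusted p = 0.000147) and -2.39 ± 0.09 (SE) at P15 against P0 (adjusted p = 9.54e-18, limma). The mean went from 5.24 to 0.192 CPM, which is 27.4 times lower and still above the level of 3 counts in every P15 library.

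FOXF2, a relative of FOXF1 in gut and palate mesenchyme, fell in the same interval. The log2 values of FOXF2 were 3.61, 3.56, 3.73 and 3.75 at P0, 3.69, 3.53, 3.75 and 3.54 at P3, 3.92, 3.66, 3.78 and 3.91 at P7, and 1.34, 1.43, 1.10 and 1.44 at P15. The first 3 phases overlapped and P15 lay below all of them. P15 against P0 gave a log2 fold change of -2.33 ± 0.08 (SE, adjusted p = 3.51e-18, limma), while P3 against P0 gave -0.03 (adjusted p = 0.729) and P7 against P0 gave 0.15 (adjusted p = 0.116, and 0.0486 with a difference of 0.21 without replicate 2 of P7). The mean went from 11.7 to 1.52 CPM, a ratio of 7.68.

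FOXQ1, FOXF2 and FOXC1 follow each other on the short arm of chromosome 6, with gaps of 74.8 kb and 214 kb. FOXC1, a factor of eye and vessel development, did not share the fall of its neighbours. Its log2 means were 3.11 ± 0.09 (SD, n = 4) at P0 and 3.58 ± 0.14 at P15, a log2 fold change of 0.48 (adjusted p = 7.64e-06, limma) with no overlap of libraries between these phases. On chromosome 16, FOXF1 lies 51.4 kb from FOXC2, which lies 6.64 kb from FOXL1. FOXF1 fell by 0.56 from P0 to P15 (adjusted p = 9.89e-06), FOXC2 rose, and FOXL1, a factor of gut mesenchyme, had phase means between 4.59 and 4.64 with no comparison passed. The 95% interval of FOXL1 at P15 against P0 was -0.15 to 0.10 on the log2 scale. In both groups a gene that fell lay beside a forkhead gene that rose.

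**Figure D4:**
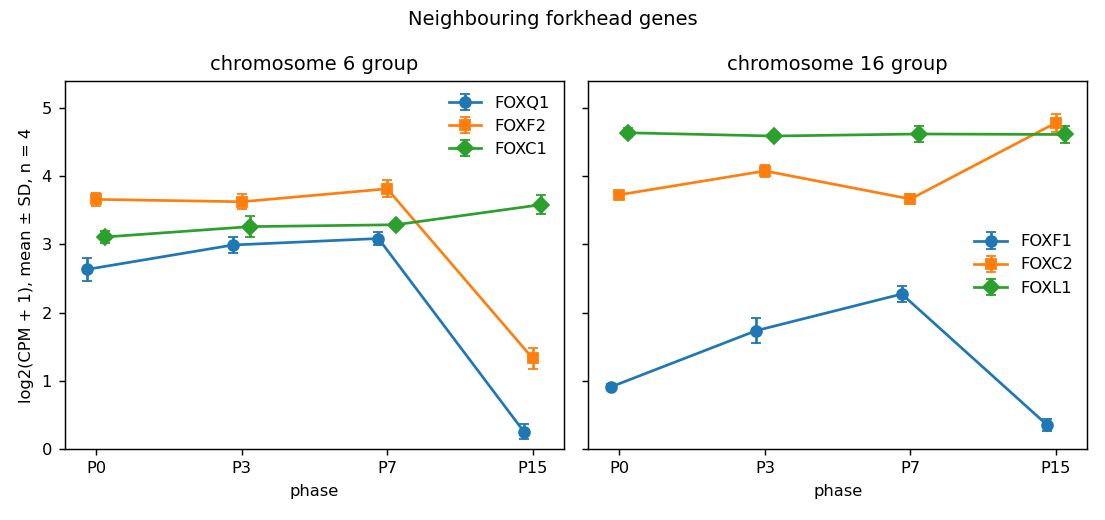
Log2(CPM + 1) as mean ± SD (n = 4 libraries, y axis) by phase (x axis) for 3 neighbouring forkhead genes on chromosome 6 (left) and 3 on chromosome 16 (right). FOXQ1 and FOXF2 fall after P7 while FOXC1 rises by 0.48 from P0 to P15, and FOXF1 falls after P7 while FOXC2 rises and FOXL1 stays within 4.59 to 4.64.

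The promoters of the chromosome 6 genes are printed to show side by side the start regions of 2 genes that fell and of their neighbour that rose. They are RefSeq windows of GRCh38.p14 on the plus strand, 5′ to 3′, with GC boxes in capitals, at chr6:1311848-1312147 for FOXQ1, chr6:1389326-1389625 for FOXF2 and chr6:1609665-1609964 for FOXC1.
FOXQ1: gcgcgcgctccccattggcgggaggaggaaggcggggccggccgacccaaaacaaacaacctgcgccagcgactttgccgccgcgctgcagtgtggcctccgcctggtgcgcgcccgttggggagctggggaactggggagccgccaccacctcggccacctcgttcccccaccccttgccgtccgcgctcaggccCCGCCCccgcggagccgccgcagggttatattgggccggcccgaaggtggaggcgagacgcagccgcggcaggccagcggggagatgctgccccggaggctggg
FOXF2: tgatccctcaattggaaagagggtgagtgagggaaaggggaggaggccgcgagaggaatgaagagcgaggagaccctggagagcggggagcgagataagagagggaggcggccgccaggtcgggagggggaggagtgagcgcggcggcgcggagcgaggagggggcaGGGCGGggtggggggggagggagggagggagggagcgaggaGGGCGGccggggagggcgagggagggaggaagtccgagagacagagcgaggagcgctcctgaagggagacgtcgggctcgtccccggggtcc
FOXC1: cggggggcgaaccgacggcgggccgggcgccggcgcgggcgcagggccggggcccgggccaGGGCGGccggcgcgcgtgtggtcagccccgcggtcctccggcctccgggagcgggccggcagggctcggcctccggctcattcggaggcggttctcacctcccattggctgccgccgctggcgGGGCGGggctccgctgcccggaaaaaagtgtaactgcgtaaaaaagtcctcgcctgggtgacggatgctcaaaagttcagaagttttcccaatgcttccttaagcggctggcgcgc
FOXQ1 holds 35 CpG dinucleotides and 1 GC box, FOXF2 holds 26 and 2, and FOXC1 holds 40 and 2, at GC contents of 74.7%, 71.0% and 72.7%. None of the 3 windows holds the forkhead core or TATAAA. Over the 45 windows of the 34 forkhead genes found in the promoter table, 29 hold a GC box, as do 45.0% of the 35116 windows of all genes. The forkhead core occurs in 2 of the 45 windows, those of FOXO4 and FOXP1, and in 3.42% of all windows, and TATAAA or its reverse in 5 and in 11.5%. The median number of CpG dinucleotides is 25 per forkhead window and 14 per window of all genes. These matches describe the sequence only.

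The other mesenchymal members were FOXD2, FOXD3 and FOXS1. FOXD2 rose by a log2 fold change of 0.50 at P15 against P0 (adjusted p = 9.42e-05, limma), from a mean of 2.19 to 3.495 CPM. FOXD3 and FOXS1 stayed below 0.1 CPM in each phase mean. Among the 8 tested of the 10 genes listed as mesenchymal, 4 passed as higher and 3 as lower at P15 against P0. The backgrounds were 45.3% and 40.9%, and the lower genes include FOXQ1, which also acts in epithelium.

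Hedgehog signalling lies upstream of FOXF1, FOXF2 and FOXL1 in mesenchyme. Of 11 genes of the pathway, 6 were tested, and 1 passed as higher and 4 as lower at P15 against P0 (all tested genes 45.3% and 40.9%). The ligand SHH fell by 2.14 and the transcription factor GLI2 by 1.29 on the log2 scale, the receptor SMO fell by 0.98, and GLI3 rose by 0.72 (adjusted p = 5.7e-07 or lower for each, limma). GLI1, named after its values were seen, was below the test limit and went the other way from GLI2. Its means were 0.421 CPM at P0, 0.103 at P3, 0.408 at P7 and 2.15 at P15. SHH had log2 means of 4.15 at P0, 2.25 at P3 and 4.02 at P7, and FOXF1 rose across these phases. A link between the pathway and these forkhead genes was not tested.

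FOXL2, the ovarian granulosa cell factor, was the 1 tested member among those of restricted tissues. On the log2 scale, FOXL2 stood at 3.82, 3.62, 3.63 and 3.70 at P0, 3.34, 3.15, 3.28 and 3.20 at P3, 3.12, 3.38, 3.12 and 3.54 at P7, and 1.38, 1.46, 1.45 and 1.52 at P15. The P0 libraries lay above those of all later phases, P3 and P7 overlapped, and P15 lay below. The log2 fold change was -0.45 at P3 against P0 (adjusted p = 7.25e-05), -0.40 at P7 against P0 (adjusted p = 0.000304) and -2.24 ± 0.09 (SE) at P15 against P0 (adjusted p = 1.23e-17, limma). The gene (ENSG00000183770) has 1 exon at 138944224 to 138947137 of chromosome 3, minus strand. FOXL2NB, the gene 0.079 kb away, was named after its values were seen, and it fell from a log2 mean of 3.66 at P0 to 1.56 at P15 (adjusted p = 3.76e-18), with a P7 mean of 3.60.

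FOXO1, which restrains growth when insulin and growth factor signals are low, was the 1 forkhead gene differentially expressed at P3 against P0. In single libraries, FOXO1 had log2 values of 4.87, 4.61, 4.70 and 4.79 at P0, 3.30, 3.30, 3.39 and 3.34 at P3, 3.53, 3.60, 3.63 and 3.51 at P7, and 3.32, 3.43, 3.21 and 3.39 at P15. All P0 libraries lay above all others, and P3 and P15 overlapped. The log2 fold change was -1.41 ± 0.07 (SE) at P3 against P0 (adjusted p = 3.37e-15), -1.18 at P7 against P0 (adjusted p = 1.42e-13) and -1.41 at P15 against P0 (adjusted p = 5.13e-16, limma). P15 and P3 differed by 0.005 (adjusted p = 0.943), with a 95% interval of -0.13 to 0.14, and after quantile normalization by -0.20 (adjusted p = 0.0101). In linear terms the mean was 25.8 CPM at P0 and 9.08, 10.9 and 9.13 CPM in the resistant phases. FOXO1 (ENSG00000150907) spans 40555667 to 40666641 of chromosome 13 on the minus strand with 3 exons, and a non-coding gene on the same strand covers 22.7% of its exon bases.

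FOXO4, another target of AKT, took a different course. By library, the log2 values were 3.10, 3.03, 2.99 and 3.17 at P0, 2.68, 2.52, 2.56 and 2.43 at P3, 3.30, 3.43, 3.35 and 3.23 at P7, and 4.07, 4.32, 4.11 and 4.04 at P15. No libraries of different phases overlapped, with P3 lowest and P15 highest. It fell by 0.53 at P3 (adjusted p = 1.48e-06), then stood 0.26 above P0 at P7 (adjusted p = 0.00519) and 1.06 ± 0.08 (SE) above P0 at P15 (adjusted p = 2.39e-12, limma). The last value was 0.98 after quantile normalization, below the limit for differential expression. FOXO4 (ENSG00000184481) lies at 71095851 to 71103532 of chromosome X, plus strand.

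FOXO3, a FOXO factor of stress resistance with 4.68 CPM per kb at P0 beside 4.34 for FOXO1, rose late. Its log2 means were 5.21 at P0 and 5.87 at P15, a log2 fold change of 0.66 (adjusted p = 1.41e-12, limma), while P3 and P7 did not differ from P0 in the test. FOXO3B gave 0.57 (adjusted p = 1.24e-05), but 36.0% of the 100-base stretches of its transcripts and 22.5% of those of FOXO3 also occur in other genes, mostly in each other, so their reads are uncertain. Of the 4 tested FOXO genes, 3 passed as higher and 1 as lower at P15 against P0 (all tested genes 45.3% and 40.9%). FOXO6, a FOXO gene known from brain, was below the test limit, with log2 values of 0.14, 0.35, 0.37 and 0.42 at P0, 0.40, 0.20, 0.52 and 0.16 at P3, 0.28, 0.36, 0.16 and 0.14 at P7, and 0.44, 0.82, 0.83 and 0.68 at P15. Its P15 libraries lay above those of P0 and P7 and overlapped P3, and when genes down to a mean of 0.1 CPM were fitted, P15 against P0 gave 0.37 (adjusted p = 0.00106, limma). FOXO1B, a FOXO1 copy, was listed at 0 in the P0 and P3 libraries and in 3 of the P7 libraries, and stood at 0.20 to 0.38 at P15.

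Known target genes of FOXO factors moved in both directions. Of 35 such genes, 33 were in the table and 27 were tested. At P3 against P0, where FOXO1 fell, 13 passed as higher and 12 as lower, with a median log2 fold change of 0.07 (all tested genes 31.4%, 37.3% and -0.03). At P15 against P0, 17 passed as higher and 9 as lower, 12 and 4 of them differentially expressed, with a median of 0.53 (all tested genes 45.3% and 40.9%, 12.1% and 11.4%, and 0.04). GADD45A, a growth arrest gene, rose by 3.00 ± 0.07 (SE), INSR, the insulin receptor, by 2.94 ± 0.08 and BBC3, which encodes the apoptosis protein PUMA, by 2.91 ± 0.07 on the log2 scale (adjusted p = 5.48e-21 or lower for each, limma). TXNIP, an inhibitor of thioredoxin, fell by 4.08 ± 0.06 (adjusted p = 1.96e-25) after it had risen by 1.39 at P3 against P0 (adjusted p = 4.08e-15). It was listed at 0 in every P15 library, so this fall is its P0 level set against the floor. The genes are targets of other factors as well.

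**Figure D5:**
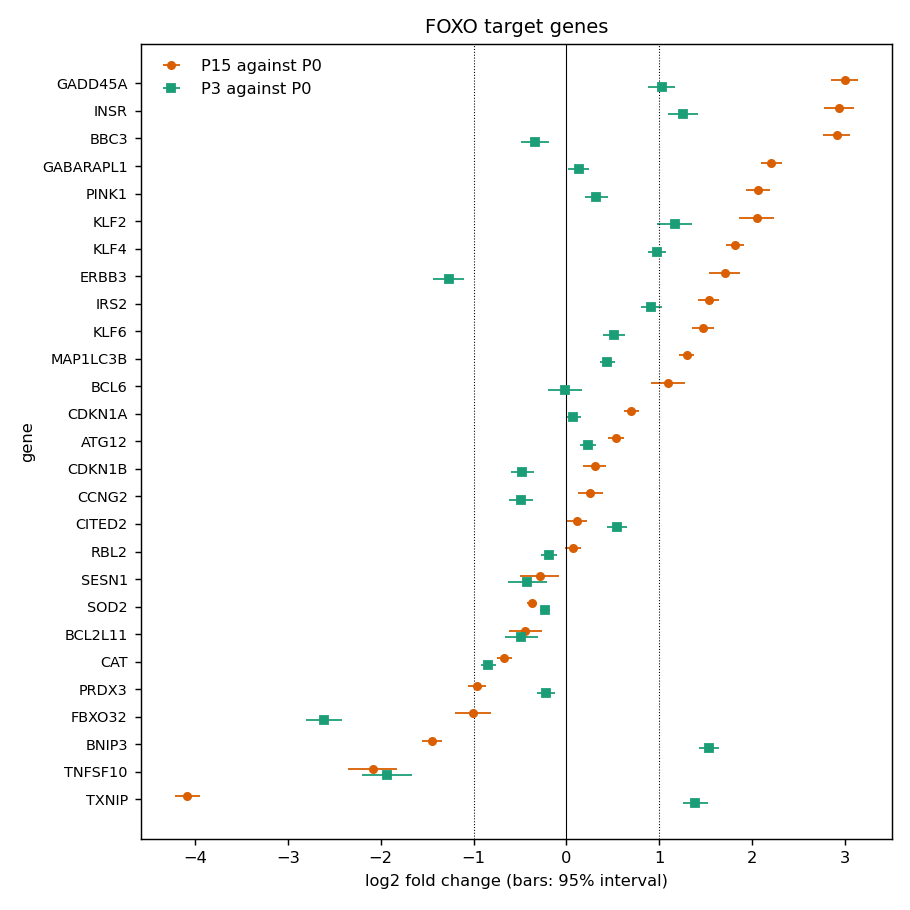
Log2 fold change (x axis, bars for the 95% interval) of 27 tested target genes of FOXO factors (y axis) at P15 against P0 (orange circles) and P3 against P0 (green squares), which share the P0 libraries. Dotted lines mark a log2 fold change of 1 in either direction, and the genes spread from TXNIP at -4.08 to GADD45A at 3.00 at P15.

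Of 20 genes whose products act on FOXO proteins, 6 passed as higher and 10 as lower at P15 against P0, with a median log2 fold change of -0.12, where 45.3% and 40.9% of all tested genes passed and their median was 0.04. SKP2, which marks FOXO1 for degradation, fell by 1.96 ± 0.04 (SE), and PIK3R1, a regulatory subunit of PI3 kinase, fell by 1.01 ± 0.06. The kinase gene SGK1 rose by 1.81 ± 0.05, and AKT1 fell by 0.79 ± 0.03 (adjusted p = 1.74e-14 or lower for each, limma). At P3 against P0, SGK1 had already risen by 2.16 (adjusted p = 2.39e-21), while AKT1 differed by 0.06 (adjusted p = 0.0974). RNA levels do not show the phosphorylation or the location of FOXO proteins.

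FOXA2, a pioneer factor of endoderm, was lowest at P7 and highest at P15. Its log2 means were 3.93 at P0, 3.81 at P3, 3.39 at P7 and 4.38 at P15. It fell by 0.55 at P7 against P0 (adjusted p = 6.7e-07) and rose by 0.99 at P15 against P7 (adjusted p = 5.49e-12, limma), just under the limit for differential expression. FOXA3, its relative in liver and gut, was listed at 0 in all 12 libraries of P0, P3 and P7, and its log2 values at P15 were 0.85, 0.77, 0.35 and 0.95, a mean of 0.679 CPM. FOXA3 was thus detected in the P15 libraries alone, at a mean too low for the main test. With genes down to 0.1 CPM fitted, P15 against P0 gave a log2 difference of 0.73 (adjusted p = 3.34e-08, limma). FOXA3 exceeded that lower limit through P15 alone, so this p-value is not independent support for a rise.

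Among the broadly expressed members, FOXJ2, FOXN2 and FOXP1 rose late. FOXJ2 had log2 means of 5.27 at P0 and 6.16 at P15 (log2 fold change 0.89 ± 0.04, SE, adjusted p = 3.1e-15), FOXN2 of 4.51 and 5.39 (0.88 ± 0.06, adjusted p = 5.17e-13) and FOXP1, a repressor active in lymphoid and heart development, of 5.69 and 6.37 (0.68 ± 0.05, adjusted p = 2.76e-12, limma). FOXJ3, which had the highest level per kilobase of the tested forkhead genes at P0 with 12 CPM per kb, rose by 0.44 (adjusted p = 8.12e-09). FOXN3, a checkpoint-associated repressor, fell by 0.37 at P3 (adjusted p = 2.9e-07) and was 0.24 lower at P15 than at P0 (adjusted p = 5.82e-05).

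FOXK1 and FOXK2, which carry a forkhead-associated domain beside the winged helix and act on autophagy and glycolysis genes, changed least at P15 against P0 among the genes that passed. FOXK1 fell by 0.18 (adjusted p = 0.00561) with overlapping libraries and FOXK2 rose by 0.11 (adjusted p = 0.0109, limma). FOXP4 rose by 0.28 at P3 (adjusted p = 0.000107) and was at 0.01 from P0 at P15 (adjusted p = 0.902). Of 8 partner proteins of FOXH1, FOXK and FOXP factors, 2 passed as higher and 4 as lower at P15 against P0 (all tested genes 45.3% and 40.9%). The TGF-beta mediator SMAD3 fell by 0.92, the corepressor CTBP1 rose by 0.37, DVL2, a Wnt mediator that FOXK proteins carry into the nucleus, fell by 0.31 and SMAD2 rose by 0.28 (adjusted p = 2.64e-08 or lower for each, limma).

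The remaining members were scarce. Beside FOXA3 and FOXO6, 6 untested genes (FOXD4, FOXD4L1, FOXH1, FOXO1B, FOXP2 and FOXP3) had their highest phase mean between 0.1 and 0.5 CPM. A further 15 stayed below 0.1 CPM in every phase mean, among them FOXE1 of the thyroid, FOXJ1 of ciliated cells, FOXN1 of the thymus and FOXI1, which was listed at 0 in all 16 libraries. FOXD4 fell at P15 against P0 by 0.28 on the log2 scale when genes down to 0.1 CPM were fitted (adjusted p = 0.00269, limma), from 0.19 to 0.53 at P0 to 0 in 3 of the P15 libraries. FOXD4 shares 24.5% of its 100-base stretches with other genes, and its copies FOXD4L3, FOXD4L4 and FOXD4L6 share 81.1%, 66.6% and 85.2%, so the values of FOXD4 and of these copies are uncertain. FOXH1, a partner of SMAD proteins, overlaps KIFC2, a protein-coding gene on the other strand, over 39.2% of its exon bases.

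Of 12 non-coding neighbours of forkhead genes in the table, FOXD2-AS1 was the 1 tested. It rose by 1.40 ± 0.11 (SE) at P15 against P0 (adjusted p = 2.49e-11, limma), from 2.49 to 8.07 CPM, beside the smaller rise of FOXD2. FOXD3-AS1 and FOXP4-AS1, named after their values were seen, went from means of 0.126 and 0.0267 CPM at P0 to 1.97 and 0.675 CPM at P15, while FOXD3 stayed below 0.1 CPM and FOXP4 did not pass.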

How the data were processed

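RNA of 16 libraries (4 each at P0, P3, P7 and P15) was analysed. The authors aligned reads with STAR 2.6.1a to GRCh38, counted them on genes with featureCounts and deposited the log2 of CPM after 1 was added, given to 2 decimals. Strand setting, annotation release and handling of reads that fit several genes are not given in the sources used here. Library totals follow from the steps between low values, each step being 1 count.

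All genes with a mean above 1 CPM were fitted in limma 3.58.1 (R 4.3.3), using a mean for each phase, all libraries together, a variance trend and Benjamini-Hochberg adjustment over the 13249 genes tested. The procedure was tested on simulated data. Means and ratios in CPM were taken after the log2 values were converted back. Coordinates come from GENCODE on GRCh38 and promoters from RefSeq, read with Python 3.11.15.

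The genes and lists were chosen with earlier results of these data known. Values per library are given for each tested gene differentially expressed in at least 1 comparison and for untested genes with a phase mean of at least 0.5 CPM, and of each other list up to 4 genes with the largest change P15 against P0 are named. Deviations of libraries of different phases with the same replicate number correlated at -0.147 to 0.218 (median 0.013). Those with different numbers correlated at -0.148 to 0.146 (median -0.005). Low correlations cannot exclude that the numbers pair libraries, and the main fit used no pairing. Other filters, pseudocounts, normalizations, a replicate block and each library left out were tried.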

Additional observations from a re-analysis of the deposited data

Results flagged for a closer look

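In 6 of 93 groups of 4 libraries, the library at one end lay far from the rest (gap over range above the Dixon limit at 95%), where chance gives about 1 in 20, or 4.65 groups. At P15, replicate 1 was low in FOXA2 (4.25 against 4.41 to 4.44, gap over range 0.842) and in FOXO3B (2.11 against 2.48 to 2.53, gap over range 0.881), and replicate 2 was high in FOXD2 (2.25 against 2.14 in the other 3, gap over range 1.00). At P7, replicate 2 was low in FOXD1 (3.93 against 4.34 to 4.41, gap over range 0.854) and high in FOXN2 (4.91 against 4.68 to 4.69, gap over range 0.957). At P3, replicate 2 was high in FOXP4 (5.89 against 5.63 to 5.66, gap over range 0.885).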

How the results depend on the processing

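The number of differentially expressed forkhead genes at P3 against P0 was 2 with a pseudocount of 0.1, with FOXF1 beside FOXO1, and 1 otherwise. That pseudocount also added FOXF1 at P15 against P0 and FOXA2 at P15 against P7 (1.06), which was likewise added without P7 replicate 4 or P15 replicate 1. At P7 against P0 it was 1 (FOXO1) when every library had to exceed 1 CPM, since FOXF1 and FOXQ1 could not be fitted there, and 2 otherwise. FOXO1 at P15 against P3 turned from 0.005 to -0.20 after quantile normalization. With a replicate block by either numbering the counts did not change, 0 at P7 against P3 included, and FOXJ3 at P7 against P3 (0.11) no longer passed (adjusted p = 0.0537 and 0.0544). Leaving out each library in turn moved no count past 1.5 times. FOXJ3 at P7 against P3 also missed the threshold without any of 6 libraries (P3 replicates 2, 3 and 4, P7 replicates 1, 2 and 4) and FOXN3 at P15 against P3 without P15 replicate 3. FOXJ3 at P3 against P0 passed without P0 replicate 2 or P3 replicate 1, FOXC1 at P7 against P0 without P0 replicate 3, FOXF2 at P7 against P0 without P7 replicate 2 and against P3 without P7 replicate 2 or P3 replicate 3, FOXN2 at P7 against P3 without P7 replicate 2, and FOXK1 at P7 against P3 without P3 replicate 4 and at P15 against P3 without P3 replicate 2 or P15 replicate 2. Of 2100 fold changes of single forkhead genes under the alternatives, 2067 kept their side of the threshold, of which 61 changed sign without passing under either setting, 19 passed in addition, 13 no longer passed and 1 that passed under the alternative changed sign. Depth limits FOXA3, FOXF1, FOXO6 and FOXQ1, whose lowest values rest on few counts.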
